A study of Mus musculus with 12 samples.

Results

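The Hoxa cluster of chromosome 6 encodes homeodomain transcription factors and is crossed by noncoding RNAs read from the opposite strand. Described here are 2 genes of its anterior side, Hoxa2 and Hoxa4, and 4 of its noncoding RNAs, Hotairm1, Hoxaas2, Hoxaas3 and Hoxa11os. They were chosen by name, and for a name with several rows the row with the highest mean over the 12 libraries was taken. These are 6 of the 25263 gene symbols in the table, and all 6 passed the filter for the tests, a mean of at least 1 FPKM (a count of fragments divided by transcript length in kilobases and by library size).

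The libraries came from leukemic bone marrow cells of adult mice carrying MLL-AF9 (MA9), a fusion oncoprotein of the chromatin regulator MLL. WT-GFP cells had an unmodified Hoxa cluster, strain C57BL/6, and received a control retrovirus, and WT-Cre cells were of the same kind but received Cre recombinase. Hoxa-flox cells, strain C57BL/6J, had a Hoxa cluster flanked by recombination sites and received the control virus, and Hoxa-del cells were of that kind and received Cre. Culture overnight used SCF, GM-CSF, IL-6 and IL-3, and cells were sorted for high GFP. The sort selects infected cells, not cells that have lost the cluster. Each group had 3 libraries, and the labels do not say whether these came from separate mice or cultures. Where the recombination sites lie, and how many leukemias each genotype stands for, is not given in the sources used here. Genotype, strain and the leukemia of origin cannot be told apart.

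Hox genes are arranged along the chromosome in the order of their expression along the body axis, from anterior to posterior. In blood, the cluster is active in stem and progenitor cells and is a main target of MLL fusion proteins. HOX proteins bind DNA with PBX and MEIS partners. Hoxa2 patterns the hindbrain and the second branchial arch, and Hoxa4 acts in patterning of the axial skeleton. Hotairm1 is a noncoding RNA of the cluster that is induced in myeloid cells by retinoic acid. Hoxaas2 and Hoxaas3 are antisense RNAs of the anterior and central part of the cluster, and Hoxa11os is the antisense RNA of Hoxa11.

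In the GENCODE M21 annotation (GRCm38), Hoxa2 lies at chr6:52162417-52164831 and Hoxa4 at chr6:52189671-52191753, both on the minus strand with 1 transcript each. On the plus strand lie Hotairm1 (chr6:52156902-52162119), Hoxaas2 (chr6:52165674-52169564), Hoxaas3 (chr6:52175217-52215076) and Hoxa11os (chr6:52244393-52249799). The ends of Hotairm1 and Hoxa2 are 297 bases apart, tail to tail, and Hoxa2 and Hoxaas2 start 842 bases apart and point away from each other. Several rows share exon sequence with a gene on the other strand: Hoxaas2 with Hoxa3 over 503 bases, Hoxaas3 with Hoxa7 over 586 and Hoxa11os with Hoxa11 over 800. Hoxa4 shares 255 with the antisense gene Gm29430. The libraries were stranded, but whether the counting used strand is not given in the sources used here, so the level of either partner is uncertain. Hoxa2 shares 267 bases on its own strand with a read-through gene, Gm28308, that extends over Hoxa3. Gm28308 and Hoxa3 had no row and were not analysed here.

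RefSeq promoter sequence (GRCm38.p6) was matched for 2 of the 6, Hoxa2 and Hoxa11os. The 250 bases before each RefSeq start are shown because both starts lie inside the cluster and their genes behaved differently between genotypes. The capitals mark matches, on either strand, to a PBX-HOX motif (TGATNNAT) or a MEIS motif (TGACAG), which do not overlap each other here. The Hoxa2 window is chr6:52164832-52165081, minus strand, and the Hoxa11os window is chr6:52244993-52245242, plus strand. The RefSeq start of Hoxa11os, chr6:52245243, lies inside its GENCODE span. In GENCODE the Hoxa11os window falls within exon 1 of the transcript Hoxa11os-206 (chr6:52244393-52245656), so it may be transcribed sequence. The shortest GENCODE transcript of Hotairm1, 253 nt, is shown because its length sets how few fragments stand behind the Hotairm1 values. Its second exon, chr6:52161931-52162020, is in capitals.
Hoxa2 promoter: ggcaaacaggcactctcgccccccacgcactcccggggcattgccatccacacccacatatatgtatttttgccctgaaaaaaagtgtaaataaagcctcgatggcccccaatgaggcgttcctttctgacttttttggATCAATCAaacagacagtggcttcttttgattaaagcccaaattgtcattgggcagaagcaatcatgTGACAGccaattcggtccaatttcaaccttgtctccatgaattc
Hoxa11os promoter: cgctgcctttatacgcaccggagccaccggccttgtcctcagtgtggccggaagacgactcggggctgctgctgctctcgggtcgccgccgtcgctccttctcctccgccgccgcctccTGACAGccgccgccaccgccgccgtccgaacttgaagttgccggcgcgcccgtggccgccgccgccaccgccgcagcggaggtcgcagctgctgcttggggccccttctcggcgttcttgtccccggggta
Hotairm1 transcript: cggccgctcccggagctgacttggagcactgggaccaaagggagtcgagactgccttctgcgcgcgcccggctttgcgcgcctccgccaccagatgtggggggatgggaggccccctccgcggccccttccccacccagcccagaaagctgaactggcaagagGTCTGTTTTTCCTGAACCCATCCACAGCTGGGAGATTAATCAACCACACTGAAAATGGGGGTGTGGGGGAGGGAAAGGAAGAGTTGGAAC

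The Hoxa2 window held 46.4% G and C. It had a PBX-HOX match, ATCAATCA, from 111 to 104 bases before the start, and a MEIS match from 44 to 39 bases before it. Among 32851 promoter windows of the same length, 7.68% held a PBX-HOX match and 15.9% a MEIS match. Of 11 windows of Hoxa genes and Hoxa11os, 1 held the PBX-HOX letters, that of Hoxa2. The Hoxa11os window held 72.8% G and C, and 232 of its 250 bases lie in the coding sequence of Hoxa11 on the other strand. It had a MEIS match from 131 to 126 bases before the RefSeq start. The retinoic acid receptor core motif AGGTCA, present in 14.0% of all windows, was not among the letters of either window. A match is a description of the letters only.

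Hoxa2 was the most abundant of the 6 in every group, and by FPKM, a scale corrected for length, it stood above every noncoding RNA in each library. WT-GFP libraries read 48.9, 54.3 and 49.4 FPKM and WT-Cre libraries 55.2, 64.1 and 59.1. The floxed libraries read 76.0, 76.5 and 44.0 FPKM with the control virus (Hoxa-flox) and 32.5, 40.005 and 28.5 with Cre (Hoxa-del). Every Hoxa-del library lay below every library of the 3 other groups, and Hoxa-flox 3 stood apart from its own group as the lowest of them. The group means were 65.5 ± 18.6 FPKM (SD, n = 3) for Hoxa-flox, 59.5 ± 4.46 for WT-Cre, 50.9 ± 2.98 for WT-GFP and 33.7 ± 5.86 for Hoxa-del. In that order, Hoxa-flox and WT-Cre did not differ beyond their spread, and WT-Cre and WT-GFP did not overlap but did not pass the test.

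Hoxa4 was expressed at a much lower level. WT-GFP libraries read 3.29, 5.41 and 5.70 FPKM, and WT-Cre libraries 6.19, 5.42 and 5.72. Hoxa-flox libraries read 3.24, 4.01 and 5.31 FPKM, against 3.07, 1.96 and 2.87 for Hoxa-del. The Hoxa-del libraries were again the lowest of the 12, but their highest value, 3.07 FPKM, was close to the lowest of Hoxa-flox, 3.24. Means ran from 5.78 ± 0.391 FPKM (SD, n = 3) in WT-Cre through 4.80 ± 1.31 in WT-GFP and 4.19 ± 1.05 in Hoxa-flox to 2.63 ± 0.590 in Hoxa-del. The groups WT-Cre and WT-GFP overlapped, as did WT-GFP and Hoxa-flox.

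**Figure D1:**
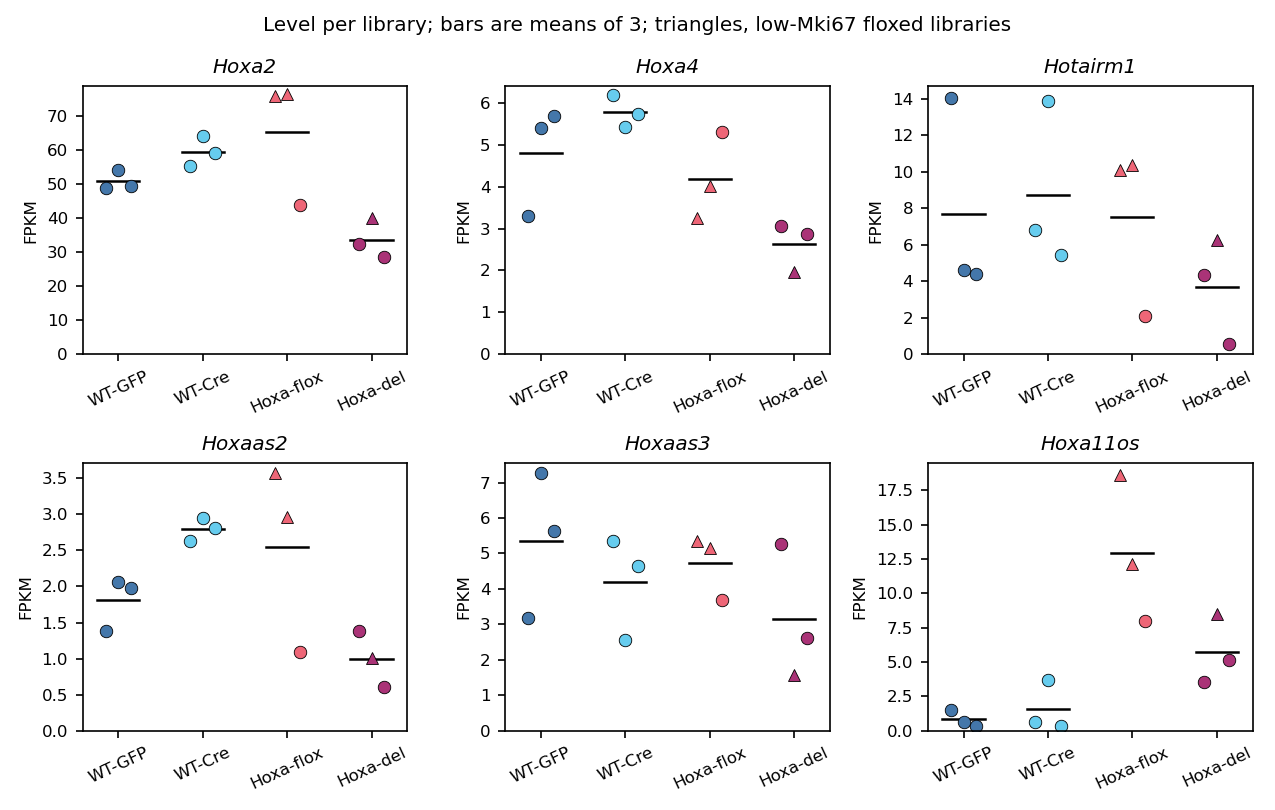
FPKM (linear axis from 0) of each gene in the 12 libraries, with 1 point per library and a bar at the mean of each group of 3; triangles mark the 3 floxed libraries with low Mki67. Hoxa2 in Hoxa-del lies between 28.5 and 40.005 FPKM, below all other libraries, and Hoxa11os in Hoxa-flox lies between 7.97 and 18.6 FPKM, above all WT libraries.

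Hotairm1 varied widely within groups, where the highest library was 2.55 (WT-Cre) to 11.7 (Hoxa-del) times the lowest. WT-GFP libraries read 14.0, 4.62 and 4.398 FPKM, and WT-Cre libraries 6.82, 13.9 and 5.45. Hoxa-flox libraries read 10.1, 10.4 and 2.11 FPKM, against 4.35, 6.24 and 0.532 for Hoxa-del. WT-GFP 1 and WT-Cre 2 were far above the other libraries of their groups, and Hoxa-flox 3 and Hoxa-del 3 far below theirs. Its annotated transcripts are 253 to 713 nt long. The value in Hoxa-del 3 therefore stood for only about 2.09 to 5.89 fragments, depending on the transcript, and that in WT-GFP 1 for 45.8 to 129. All 4 groups overlapped, at means of 7.68 ± 5.49 (WT-GFP), 8.72 ± 4.53 (WT-Cre), 7.53 ± 4.69 (Hoxa-flox) and 3.71 ± 2.91 FPKM (Hoxa-del; SD, n = 3 each).

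Hoxaas2, the divergent neighbour of Hoxa2, had a low level with a pattern like that of Hoxa2. WT-GFP libraries read 1.38, 2.07 and 1.97 FPKM, and WT-Cre libraries 2.63, 2.95 and 2.81. Hoxa-flox libraries read 3.57, 2.97 and 1.09 FPKM, against 1.38, 1.003 and 0.601 for Hoxa-del. The WT-Cre libraries all exceeded the WT-GFP libraries, and Hoxa-flox 3 fell among the Hoxa-del values. Its level was 3.54 ± 0.630% of that of Hoxa2 in WT-GFP cells, 4.71 ± 0.0912% with WT-Cre, 3.69 ± 1.12% with Hoxa-flox and 2.96 ± 1.14% with Hoxa-del (SD, n = 3 each). Between 6.90 and 51.4 fragments stood behind each library's value if the shortest transcript was the one expressed.

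Hoxaas3, whose GENCODE locus spans 39860 bases of the central cluster, read 3.19, 7.28 and 5.63 FPKM in WT-GFP and 5.36, 2.55 and 4.64 in WT-Cre. Hoxa-flox libraries read 5.36, 5.14 and 3.67 FPKM, against 5.26, 1.57 and 2.61 for Hoxa-del. No pair of groups was separated on this row.

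Hoxa11os set the genotypes apart. WT-GFP libraries read 1.54, 0.649 and 0.338 FPKM, and WT-Cre libraries 0.622, 3.70 and 0.373. Hoxa-flox libraries read 18.6, 12.2 and 7.97 FPKM, against 3.56, 8.53 and 5.17 for Hoxa-del. All Hoxa-flox libraries exceeded all WT libraries, while WT-Cre 2, the shallowest library, lay just above the lowest Hoxa-del library. Its sense partner Hoxa11 was at 0.650 ± 0.172 FPKM in WT-GFP and 0.608 ± 0.147 in WT-Cre cells, beside 38.3 ± 3.02 in Hoxa-flox and 16.3 ± 7.62 in Hoxa-del cells (SD, n = 3 each). Hoxa11os was 33.2 ± 11.4% of the level of Hoxa11 in Hoxa-flox and 36.5 ± 6.02% in Hoxa-del. In the WT groups, where both were low, this share lay between 52.9% and 845%.

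The depth estimated from the low values ran from 4.07 M fragments (WT-Cre 2) to 19.3 M (WT-GFP 3). Markers fitted the label of leukemic myeloid cells: all 8 myeloid progenitor genes were present, summing to 2466 to 3750 FPKM in WT and 1436 to 2576 in floxed libraries. T cell markers summed to at most 0.374, erythroid markers to at most 1.504 and B cell markers to at most 2.73 FPKM. Stromal markers summed to 0.892 to 2.63 FPKM in WT and 1.70 to 6.05 in floxed libraries. Endothelial markers summed to 9.41 to 12.7 FPKM in WT and 17.5 to 44.8 in floxed libraries. The part of these marker differences in the results between genotypes was not tested. The floxed libraries split on their first principal component, computed without Hoxa genes, which held 64.5% of the variance. Hoxa-flox 1, Hoxa-flox 2 and Hoxa-del 2 had low levels of the proliferation marker Mki67 (14.9 to 17.8 FPKM), and Hoxa-flox 3, Hoxa-del 1 and Hoxa-del 3 had high levels (84.6 to 93.2). These sets cut across the Cre treatment, and values within each set are given beside the results. RNA was taken from bulk cells, so fewer cells expressing a gene and less RNA per cell cannot be told apart.

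The change of these genes with Cre in floxed cells was measured by comparing Hoxa-del with Hoxa-flox. The means of all 6 were lower in Hoxa-del, which was left with 51.4 ± 17.1% of the Hoxa-flox level for Hoxa2, 62.8 ± 21.1% for Hoxa4, 49.2 ± 49.3% for Hotairm1, 39.2 ± 25.1% for Hoxaas2, 66.5 ± 42.3% for Hoxaas3 and 44.6 ± 27.0% for Hoxa11os (SD propagated from n = 3 and 3). The share of Hotairm1 was 32.4% without Hoxa-del 2 and 70.3% without Hoxa-del 3. That of Hoxaas3 was 44.1% without Hoxa-del 1 and 83.2% without Hoxa-del 2. None of the 6 passed the test (limma on log2(FPKM + 1), adjusted over 13169 genes, threshold 0.05), against 0.0304% of all genes. At an unadjusted p under 0.05 there were 3 of 6, Hoxa2, Hoxa4 and Hoxaas2, against 6.27% of all genes. The log2 change of Hoxa2 was -0.91 (SE 0.21, limma adjusted p = 0.719), and those of the others lay between -0.51 for Hoxa4 and -1.04 for Hoxa11os (adjusted p = 0.729 to 0.746). The median of the 6 was -0.84, beside -0.06 over all genes, of which 58.4% had a change below 0. Without Hoxa-flox 3 the change of Hoxa2 passed (log2 -1.17, adjusted p = 0.0316), as it did without Hoxa-del 2 (log2 -1.04, adjusted p = 0.0437). The calls over all 13169 genes rose there as well, from 4 to 12 and to 787. Without any other floxed library Hoxa2 did not pass (log2 -0.78 to -0.89, limma adjusted p of 0.721 or more). Groups did not overlap for 2 of 6, Hoxa2 and Hoxa4, against 4.14% of all genes in the same direction.

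Mean levels left after Cre differed between the library sets for the plus-strand RNAs of the anterior cluster. Among low-Mki67 libraries (1 Hoxa-del against 2 Hoxa-flox) Hoxaas2 was at 30.7% of the Hoxa-flox level, Hoxaas3 at 29.8% and Hotairm1 at 60.9%. Among high-Mki67 libraries (2 against 1) they were at 90.7%, 107% and 115%. These are means of libraries that disagree. For each of these RNAs Hoxa-del 1 lay above Hoxa-flox 3 and Hoxa-del 3 below it, as for Hotairm1 at 4.35 and 0.532 against 2.11 FPKM. Hoxa2 was at 52.5% and 69.3%. For Hoxa4 the shares were close together, 54.1% and 55.9%, and so were those of Hoxa11os, 55.5% and 54.8%. The order was opposite for the posterior genes Hoxa10, at 63.2% in the low-Mki67 and 33.5% in the high-Mki67 libraries, and Hoxa11, at 59.0% and 36.0%. With 1 library on a side this difference was not tested. Beside it stands that Hoxa-flox 3 is the sole Hoxa-flox library with high Mki67 and read lowest of its group for Hoxa2, Hotairm1, Hoxaas2, Hoxaas3 and Hoxa11os, and highest for Hoxa4. With the set as a term in the fit, Hoxa2 changed by -0.72 (SE 0.11, limma adjusted p = 0.121), and none of the 6 passed.

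**Figure D2:**
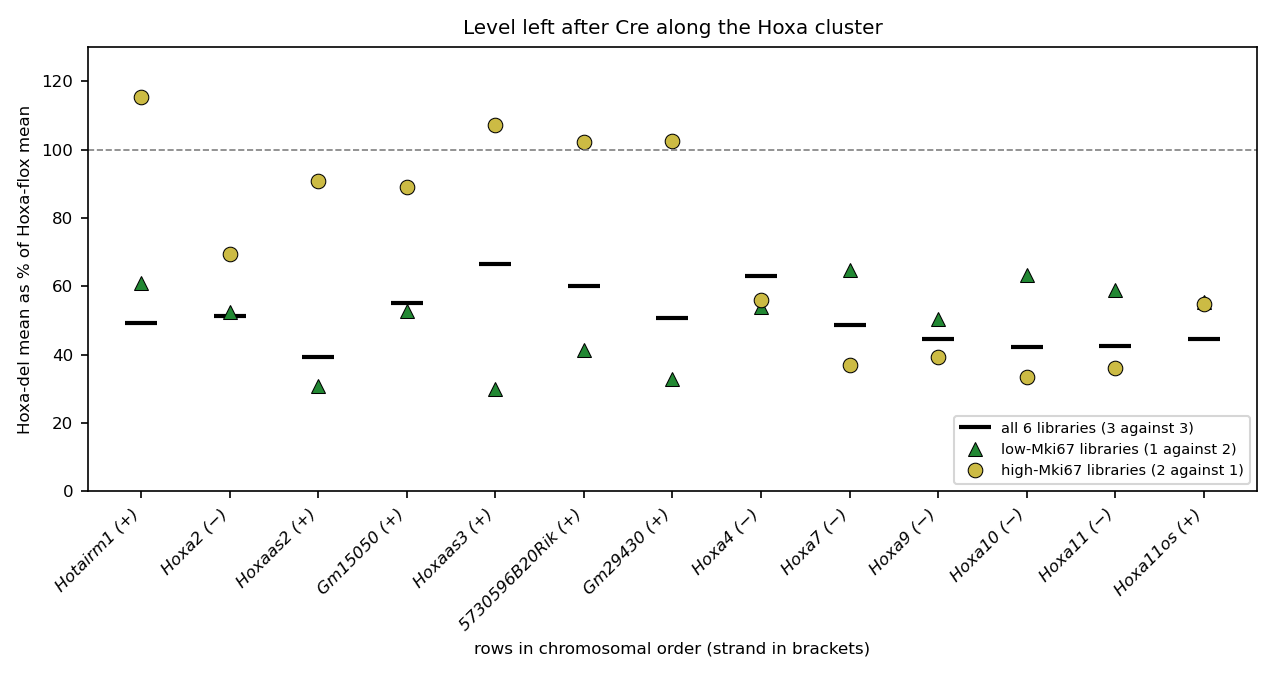
Mean level in Hoxa-del as a percentage of that in Hoxa-flox for rows of the cluster in chromosomal order, over all 6 floxed libraries (bars) and within the low-Mki67 (triangles) and high-Mki67 (circles) libraries. Hoxaas2, Hoxaas3, Gm15050, 5730596B20Rik, Gm29430 and Hotairm1 sit between 89.2% and 115% in the high-Mki67 libraries, and Hoxa7 to Hoxa11 between 33.5% and 39.4%.

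Cre in cells with no floxed cluster gave no call. Comparing WT-Cre with WT-GFP, 0 of 6 passed, against 0.0152% of all genes, and 0 of 6 had an unadjusted p under 0.05, against 2.37%. The means of 5 of the 6 were higher in WT-Cre. Hoxaas2 was at 155% of its WT-GFP level (log2 0.44, SE 0.27, limma adjusted p = 1) and Hoxa2 at 117% (log2 0.22, SE 0.21, adjusted p = 1). These SE pool the spread of all 4 groups. With only the WT groups in the fit they were 0.13 for Hoxaas2 (limma adjusted p = 0.249) and 0.07 for Hoxa2 (0.256). Genes with an unadjusted p under 0.05 then rose from 312 to 2202 of 13169. The groups of Hoxaas2 and Hoxa2 did not overlap, which held for 2 of 6 and for 9.31% of all genes in that direction. The other plus-strand rows between Hoxaas2 and Hoxa4, namely Gm15050, 5730596B20Rik and Gm29430, were also separated: 3 of 3 had every WT-Cre library above every WT-GFP library. Gm15050 read 2.19, 3.21 and 2.91 FPKM in WT-GFP and 4.05, 4.83 and 3.23 in WT-Cre. These 3 rows were added after their values were seen, and none passed the test (adjusted p = 1).

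The difference between the changes with Cre in the genotypes was tested as an interaction. None of the 6 passed, against 0.00759% of all genes, and 3 of 6 had an unadjusted p under 0.05, against 2.46%. The change of Hoxa2 with Cre was 1.13 lower in floxed than in WT cells on the log2 scale (-1.13, SE 0.29, limma adjusted p = 0.9997). That of Hoxaas2 was -1.22 (SE 0.39) and that of Hoxa4 -0.76 (SE 0.30), at the same adjusted p. Hoxa2 was the sole member with both Hoxa-del below Hoxa-flox and WT-Cre above WT-GFP in every library, a combination met by 31 of 13169 genes (0.235%).

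**Figure D3:**
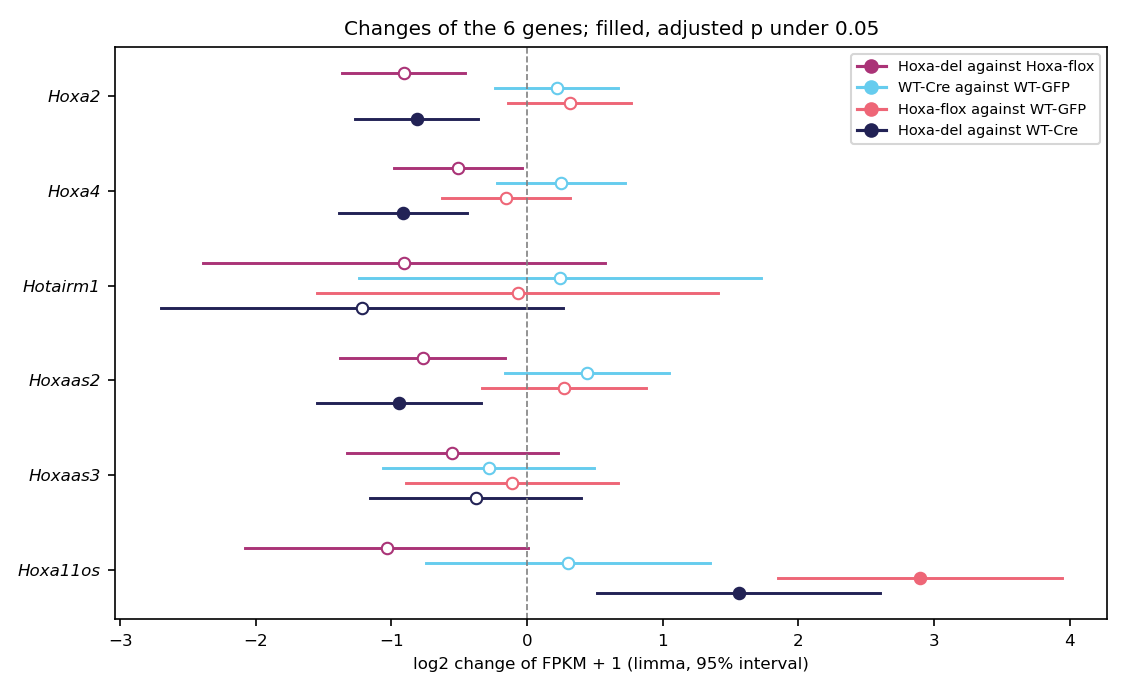
Log2 change of FPKM + 1 with its 95% interval (limma) for each gene in 4 comparisons of 3 against 3 libraries; filled points have an adjusted p under 0.05. No point is filled for either Cre comparison, while Hoxa11os is at 2.90 in Hoxa-flox against WT-GFP and Hoxa4 at -0.91 in Hoxa-del against WT-Cre.

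Between genotypes under the control virus, Hoxa11os alone of the 6 changed. It was 15.4-fold higher in Hoxa-flox than in WT-GFP (log2 2.90, SE 0.48, limma adjusted p = 0.00101). The WT-GFP mean was 0.841 FPKM, below the 1 FPKM of the filter, and without WT-GFP 1 the ratio was 26.2-fold. The mean of Hoxa11os over the 12 libraries, 5.27 FPKM, came mostly from Hoxa-flox (12.9) and Hoxa-del (5.75). WT-Cre was at 1.57 FPKM, raised by WT-Cre 2 at 3.70. A higher level of Hoxa11os in floxed cells was thus partly favoured by the filter. In this comparison 26.8% of all genes passed, and 13.3% of all genes passed as higher, so 1 of 6 is near the background. For the others the log2 change lay between -0.15 (Hoxa4) and 0.32 (Hoxa2), with adjusted p of 0.293 to 0.953. The posterior genes Hoxa11 (log2 4.58, adjusted p = 6.26e-07) and Hoxa10 (log2 1.68, adjusted p = 0.00121) were higher too. Hoxa11, at a mean of 0.650 FPKM in WT-GFP, reached the filter through its floxed levels. The 95% interval of the Hoxa2 change ran from -0.14 to 0.77 and that of Hoxa4 from -0.62 to 0.32. Without Hoxa-flox 3 the calls were 3 of 6, with Hoxa2 and Hoxaas2 also higher. The calls over all 13169 genes rose as well, from 3525 to 4195.

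Under Cre, 4 of the 6 differed between genotypes, against 27.2% of all genes. Hoxa2 was lower in Hoxa-del than in WT-Cre, at 56.6% of its level (log2 -0.81, SE 0.21, limma adjusted p = 0.0132), Hoxa4 was at 45.6% (log2 -0.91, SE 0.21, adjusted p = 0.00909) and Hoxaas2 at 35.6% (log2 -0.95, SE 0.27, adjusted p = 0.0256). Hoxa11os was 3.68-fold higher (log2 1.56, SE 0.48, adjusted p = 0.0316), and without WT-Cre 2 the ratio was 11.6-fold. Lower calls made up 14.2% and higher calls 13.0% of all genes. Hotairm1 (log2 -1.22, SE 0.67, adjusted p = 0.210) and Hoxaas3 (log2 -0.38, SE 0.35, adjusted p = 0.471) did not pass. Groups were separated for 3 of 6, all lower in Hoxa-del, where 20.7% of all genes were. The 3 plus-strand rows beside them, also named after their values were seen, were lower as well: Gm15050 by log2 -1.22 (adjusted p = 0.00232), 5730596B20Rik by -1.20 (adjusted p = 0.00387) and Gm29430 by -1.10 (adjusted p = 0.00792). The call of Hoxa4 held in 13 of 13 alternatives, that of Hoxa2 in 11, that of Hoxaas2 in 9 and that of Hoxa11os in 7. Without Hoxa-del 3 the call of Hoxa4 was the 1 left (Hoxa2 adjusted p = 0.0505, Hoxaas2 0.0894, Hoxa11os 0.0677), where 2946 of 13169 genes passed. Without WT-Cre 1, WT-Cre 2 or WT-Cre 3 there were 2 of 6, where 2594, 2673 and 2552 genes passed.

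For Hoxaas3 this comparison depended on the row. The symbol has 6 rows, which the table does not identify with transcripts, and the row with the highest mean behaved unlike the rest. In Hoxa-del against WT-Cre the 5 other rows all passed in a fit with every row of repeated symbols, at log2 -1.001 to -1.79 and limma adjusted p = 0.00238 to 0.0315, where 26.8% of all rows passed. With Cre in WT cells the highest row was at 78.0% of its WT-GFP mean, and the other 5 were at 136% to 186%. None of the 6 rows passed in that comparison. In 2 of 6 every WT-Cre library was above every WT-GFP library, beside 9.31% of all genes. The second row, 1 of those 2, read 2.86, 4.82 and 5.10 FPKM in WT-GFP, and 6.21, 7.03 and 6.86 in WT-Cre. In floxed cells it read 4.02, 4.08 and 3.002 FPKM under the control virus, and 3.08, 2.004 and 2.72 under Cre. Between Hoxa-del and Hoxa-flox, 5 of 6 rows had a lower mean and none passed. The fourth row went the other way, at 139%. Summed over the 6 rows, which may count shared exons more than once, the level was 25.1 ± 8.54 FPKM for WT-GFP, 34.3 ± 3.48 for WT-Cre, 20.2 ± 1.59 for Hoxa-flox and 13.7 ± 5.59 for Hoxa-del (SD, n = 3 each).

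**Figure D4:**
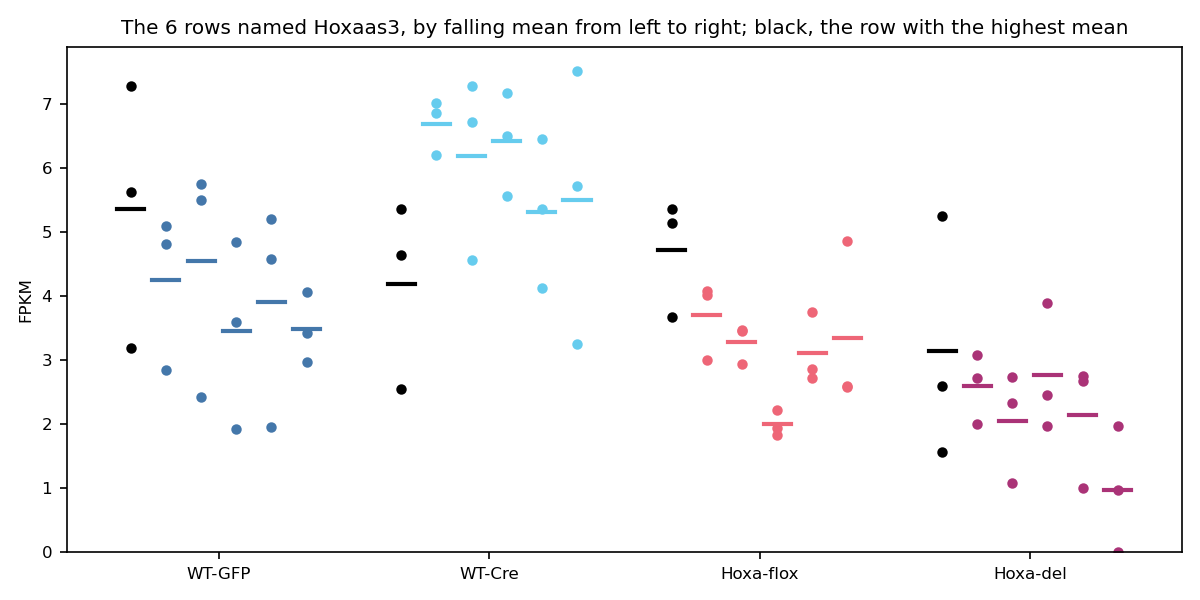
FPKM (linear axis) of the 6 rows named Hoxaas3 in the 4 groups, with 1 point per library and a bar at each mean; the row with the highest mean is black. In WT-Cre the black row has the lowest mean of the 6, 4.19 FPKM, while in WT-GFP it has the highest, 5.37 FPKM.

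The genes most alike in pattern were ranked by Pearson's r of log2(FPKM + 1) over the 12 libraries, given as a description since all points share libraries, genotype and the Mki67 sets. Among 13168 other symbols, the one most like Hoxaas2 was Hoxa2 (r = 0.92), followed by Appl2 (0.91) and Zfp831 (0.90). The other 3 plus-strand rows were close behind: 5730596B20Rik ranked 8, Gm29430 ranked 13 and Gm15050 ranked 16. Most like Hoxa2 were Tgoln1 (0.93), Hoxaas2 (0.92) and Mon2 (0.91). For Hoxa4 they were Wdr92 (0.92), Gm11455 (0.90) and Nqo2 (0.89), and Hoxa2 was far down at 0.43. Hotairm1 was most like Ube2h (0.95), Zfp790 (0.93) and Dyx1c1 (0.93). The highest row of Hoxaas3 was most like Gm28707 (0.81), Safb (0.81) and Fastkd1 (0.79). Hoxa11os was most like Gmpr (0.98), Slc18a1 (0.96) and Foxn3 (0.96), with Hoxa11 at rank 151 (0.91) and Hoxa2 at 0.09.

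**Figure D5:**
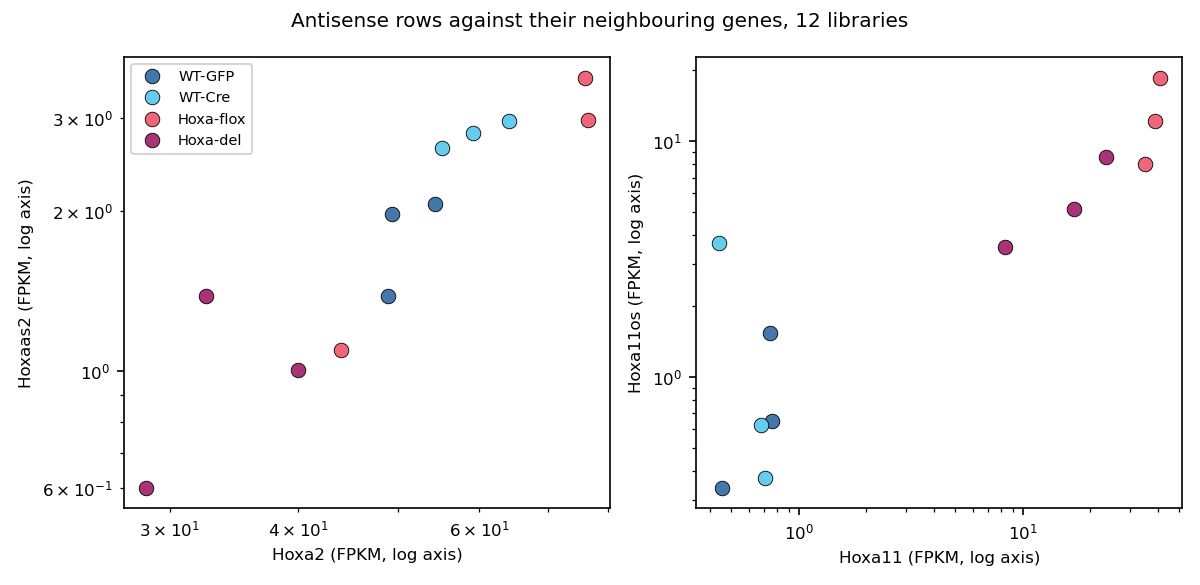
Level of Hoxaas2 against Hoxa2 and of Hoxa11os against Hoxa11 in the 12 libraries (FPKM, log axes), colored by group. Hoxaas2 and Hoxa2 run together across the 4 groups (r = 0.92 on the log2(FPKM + 1) scale), while Hoxa11os and Hoxa11 form separate WT and floxed clouds.

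Gene lists around these 6 were read for context. Of 9 other Hoxa genes 6 had a row and 5 were tested. With Cre in floxed cells 1 of them, Hoxa9, fell (log2 -1.17, SE 0.16, limma adjusted p = 0.0422), and the list's median was -1.17. Of 11 genes flanking the cluster 7 were tested and 0 changed with Cre in either genotype, with a median of 0.24 in floxed cells. Among them Hnrnpa2b1, an RNA-binding protein gene, was at 179 ± 103 FPKM under the control virus and 212 ± 98.4 under Cre (SD, n = 3). Tax1bp1, an autophagy receptor gene, was at 67.7 ± 12.8 and 73.9 ± 14.5 FPKM in the same groups. Between genotypes under the control virus 2 of the 7 differed, a share near the 26.8% of all genes: Snx10 was lower in Hoxa-flox (log2 -1.35, limma adjusted p = 3.06e-05) and Hibadh higher (log2 0.57, adjusted p = 0.00780). Under Cre 1 of 7, Snx10, was lower in Hoxa-del (log2 -1.41, adjusted p = 2.31e-05), where 27.2% of all genes differed and 14.2% were lower. Of the other Hoxa genes, 3 of 5 were higher in Hoxa-flox than in WT-GFP (Hoxa11, Hoxa10 and Hoxa9), against 13.3% of all genes. Under Cre 3 of 5 differed, against 27.2%: Hoxa11 was higher (log2 3.32, adjusted p = 8.31e-06), and Hoxa9 (log2 -0.62, adjusted p = 0.0128) and Hoxa7 (log2 -0.89, adjusted p = 0.0162) were lower in Hoxa-del. Of 28 Hoxb, Hoxc and Hoxd genes, 2 reached the filter. Hoxb4 was lower in Hoxa-flox than in WT-GFP (log2 -1.38, adjusted p = 0.000737), where 1776 of 13169 genes were lower. It was at 2.34 ± 0.362 FPKM for WT-GFP and 0.278 ± 0.0613 for Hoxa-flox (SD, n = 3). It thus reached the filter through the WT groups, so a lower level in floxed cells was partly fixed by the filter. Hoxb13 was at 4.91 ± 0.759 FPKM for WT-GFP and 5.42 ± 0.262 for Hoxa-flox (SD, n = 3). Of 11 noncoding RNAs of the other Hox clusters 1 had a row and 0 reached the filter.

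Retinoic acid pathway genes were listed because retinoic acid induces anterior Hox genes and Hotairm1. Of 23, 10 were tested. With Cre, 0 of 10 changed in either genotype. The most abundant, Tgm2, which encodes a transglutaminase induced by retinoic acid, was at 489 ± 373 FPKM for Hoxa-flox and 334 ± 365 for Hoxa-del (SD, n = 3). Under Cre 3 of 10 differed, near the 27.2% of all genes: Rara was higher (log2 1.26, limma adjusted p = 0.0396), and Rxra (log2 -3.51, adjusted p = 4.52e-07) and Dhrs3 (log2 -3.31, adjusted p = 8.90e-06) were lower in Hoxa-del than in WT-Cre. Between Hoxa-flox and WT-GFP, where 13.3% of all genes were higher, 1 of 10 was, Rara (log2 2.03, SE 0.40, limma adjusted p = 0.00345), which encodes the retinoic acid receptor alpha. Among those lower in Hoxa-flox were Rxra (log2 -3.51, adjusted p = 4.68e-07), its partner receptor, and Dhrs3 (log2 -2.94, adjusted p = 2.17e-05), a retinaldehyde reductase. The mean of Rxra was 19.9 ± 2.14 FPKM for WT-GFP and 0.862 ± 0.441 for Hoxa-flox (SD, n = 3), the latter below the 1 FPKM of the filter. Over the same comparison Hoxa2 (log2 0.32, SE 0.21), Hoxa4 (log2 -0.15, SE 0.21) and Hotairm1 (log2 -0.07, SE 0.67) did not pass. Not passing does not show that their levels were unchanged, and the SE of Hotairm1 was large. A link between the retinoic acid pathway genes and these genes was not tested.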

How the data were processed

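RNA of 12 libraries was isolated with TRIzol, depleted of ribosomal RNA, made into stranded libraries and sequenced on a NextSeq instrument, per the labels' protocols. The tools STAR, Cufflinks and Cuffdiff 2.2.2.20150701 are named without a role, as are mm10 and GRCm38, per the submitters' processing notes. The table has 28042 rows. Its deposited values were taken as FPKM, computed by the authors' tools, since no unit is stated. 0 columns were left without a sample. Depth was estimated from low values (means under 0.3 FPKM), of which 84.0% to 91.0% lay within 0.07 (log2) of whole fragments.

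Differences were tested with limma 3.58.1 (R 4.3.3) on log2(FPKM + 1), which understates changes of low genes, in 1 fit of 4 groups over 13169 symbols that averaged 1 FPKM or more, with Benjamini-Hochberg adjustment. P-values cover no more than the spread among these libraries, which is pooled over the 4 groups. For Hoxa2 the pooled SE of the change with Cre was 0.21 in both genotypes. With only the groups compared it was 0.07 in WT and 0.27 in floxed cells. Tables were made with scipy 1.17.1, numpy 2.4.6, pandas 2.3.3 and Python 3.11.15. The fit was tested on simulated data with noise drawn independently for each library, unlike the split of the floxed libraries. A log2 change of -1 passed for 50% of 100 changed genes in Hoxa-del against Hoxa-flox and for 12% in the interaction. A change of -2 passed for 85% and 62%. No member was under the filter, so no test of such members was made. Named were the 6 members, list genes with the smallest adjusted p (up to 4) or else the highest mean (up to 2), and the 3 symbols most alike. Gm15050, 5730596B20Rik, Gm29430, and Hoxa7, Hoxa10 and Hoxa11 where outside this rule, were added after their values were seen. Members and lists were chosen with earlier results of these data known. Alternatives were a pseudocount of 0.1, no filter, upper quartile rescaling, array weights, only the groups compared, a replicate block, all rows of repeated symbols, the library set as a term and each library left out. Some genes that met the naming rule are not reported in this text.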

Additional observations from a re-analysis of the deposited data

Results flagged for a closer look

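For Hoxa2, all Hoxa-del libraries lay below all Hoxa-flox libraries, and all WT-Cre libraries lay above all WT-GFP libraries. The first held for 4.14% of all genes, the second for 9.31% and both together for 0.235%. Neither change passed over all genes (log2 -0.91, SE 0.21 in floxed cells and log2 0.22, SE 0.21 in WT cells). A higher level with Cre in WT cells is thus not shown beyond this separation of the libraries. The difference of the changes was -1.13 on the log2 scale (SE 0.29, limma adjusted p = 0.9997), so it did not pass over all genes. Over libraries left out it ran from -1.39, without Hoxa-flox 3 (limma adjusted p = 0.111, the lowest of these), to -0.998, and it passed in none of them.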

How the results depend on the processing

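Of the alternatives for the log2 change of a gene in a comparison, 397 kept direction and side of the threshold, 13 newly passed, 12 no longer passed and 10 turned direction. Of those for the share left after Cre, 3 moved by more than the SD, all within the high-Mki67 set: Hoxa2 (69.3%), Hotairm1 (115%) and Hoxaas2 (90.7%). With array weights 3 of 6 genes passed in Hoxa-del against Hoxa-flox, 3 in the interaction and 5 in Hoxa-flox against WT-GFP, with 5173, 3452 and 9186 genes in all and 18 for WT-Cre against WT-GFP; that weighting did not fully converge. Leaving out each library gave 0 to 1 (Hoxa-del against Hoxa-flox), 1 to 3 (Hoxa-flox against WT-GFP) and 1 to 4 (Hoxa-del against WT-Cre) of the 6. Of all 13169 genes, 2405 to 4195 passed in Hoxa-flox against WT-GFP and 2552 to 3995 in Hoxa-del against WT-Cre. Over all genes the main counts were 4, 2 and 1 for the Cre comparisons in floxed and WT cells and the interaction. Leaving out each library gave 2 to 787 (787 without Hoxa-del 2, 12 without Hoxa-flox 3), 0 to 7 and 1 to 5. With no filter they were 7, 5 and 4, and with only the groups compared 1 and 5.

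Directions turned for Hotairm1 in WT-Cre against WT-GFP (-0.12 to 0.72 over libraries left out, below 0 without WT-GFP 3 or WT-Cre 2) and in Hoxa-flox against WT-GFP (0.87 with array weights, -0.39 to 0.55 over libraries left out, above 0 without WT-GFP 1 or Hoxa-flox 3). They turned for Hoxa11os in WT-Cre against WT-GFP (-0.25 to 0.64, below 0 without WT-Cre 2). For Hoxaas3 they turned in the interaction (-0.62 to 0.027, above 0 without WT-GFP 1 or Hoxa-del 2) and in Hoxa-flox against WT-GFP (-0.38 to 0.11, above 0 without WT-GFP 2 or Hoxa-flox 3). The cause was not tested. The deviations of same-numbered libraries from their group means correlated at r of -0.30, 0.60 and 0.72 in floxed cells and 0.01, -0.01 and 0.09 in WT cells. As 4 of the 6 pairs were not over 0.1, and Hoxa-flox 1 correlated best with Hoxa-del 2 (0.61), the numbers were not taken to pair the libraries. With the replicate block 0 genes passed in WT-Cre against WT-GFP and 3 in Hoxa-del against Hoxa-flox, and the members past the threshold numbered 0, 0, 0, 1 and 4 over the 5 comparisons. Depth limits Hotairm1, Hoxaas2 and WT Hoxa11os, which rest on few fragments.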
